A study of Mus musculus with 8 samples.

Results

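Transcripts used as markers of Kupffer cells and other leukocytes were followed through RNA-seq libraries of primary mouse hepatocytes. They comprise 30 genes, found by their names in a table of 34745 genes, and all 30 were present. The libraries came from wild-type male mice given adeno-associated virus of serotype AAV8 at 6 weeks of age, with hepatocytes isolated 4 weeks later. The virus carried mouse Trib3 in 4 libraries (AAV-Trib3) and GFP in the 4 control libraries (AAV-GFP), so every animal had received a virus. The age and the interval are worded for the Trib3 virus in a protocol that stands on all 8 samples. The sources used here give neither the promoter of the vectors nor the number of animals behind a library. The labels number the libraries of a group without saying that each is a separate mouse, so p-values measure the spread between libraries, part of which may be technical.

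Kupffer cells are the resident macrophages of the liver. They sit in the sinusoids, depend on signals through the receptor CSF1R, clear particles and dying cells from the blood with scavenger receptors, and make the chains of complement C1q. They and dendritic cells present peptides on MHC class II molecules to T cells. Preparations of hepatocytes usually keep some of these cells. In bulk RNA, fewer cells of a type and less RNA per cell cannot be told apart.

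Total counts ran from 13491058 to 15361128 in AAV-Trib3 libraries and from 11350442 to 14247364 in AAV-GFP libraries. Levels are given as CPM, counts scaled to library size and corrected with TMM factors for differences in library composition. Levels of different genes are compared in FPKM, which also divides by gene length. Trib3 itself was at 27.9, 62.6, 67.2 and 20.2 CPM in AAV-Trib3 replicates 1 to 4. It lay between 1.11 and 3.36 CPM in AAV-GFP, so each library matched its label. The hepatocyte marker Alb was at 48640 to 84280 CPM in AAV-Trib3 and 50130 to 107600 CPM in AAV-GFP. AAV-GFP replicate 2 stood apart from the other libraries, with mitochondrially encoded transcripts at 32.0% of its counts against 14.9% to 18.5% elsewhere and a TMM factor of 0.699.

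The 30 genes took 0.00643% to 0.0224% of the counts of a library. Of their 15082 counts in all, 41.8% came from Lcp1. Summed CPM of the 30 genes was 134.6 ± 59.2 in AAV-Trib3 and 134.6 ± 66.5 in AAV-GFP (SD, n = 4 each). Without Lcp1, the sum was 154, 21.6, 46.6 and 100.5 CPM in AAV-Trib3 replicates 1 to 4, against 22.9, 130.0, 16.8 and 125 CPM in AAV-GFP replicates 1 to 4. AAV-Trib3 replicates 1 and 4 and AAV-GFP replicates 2 and 4 had the highest sums, AAV-Trib3 replicate 3 came next, and the groups overlapped. The highest library had 9.16 times the lowest. Within AAV-Trib3, replicates 1 and 4 had less Trib3 than replicates 2 and 3, and a link to these sums was not tested.

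**Figure D1:**
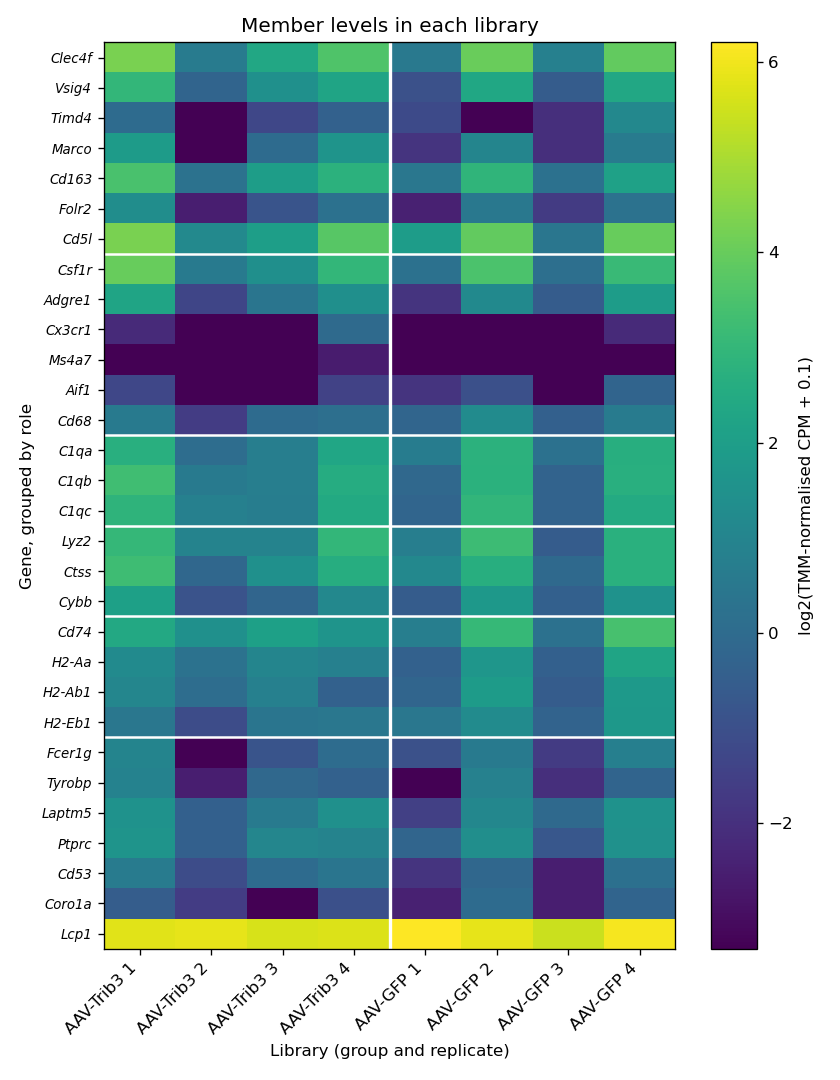
Level of each of the 30 genes (rows, in role groups divided by white lines) in each library (columns, AAV-Trib3 left of AAV-GFP), as log2 of TMM-normalised CPM plus 0.1. Most rows are bright in AAV-Trib3 replicates 1 and 4 and in AAV-GFP replicates 2 and 4, while Lcp1 is bright in all 8 libraries.

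The comparison asked how these transcripts stood with raised Trib3. Of the 30 genes, 25 had enough counts to be tested, and 5 did not (Timd4, Cx3cr1, Ms4a7, Aif1 and Coro1a). In edgeR's quasi-likelihood test over 11036 genes, 0 of the 25 were called higher or lower at a Benjamini-Hochberg adjusted p of 0.05. The share called among all tested genes was 0% in each direction. At an unadjusted p under 0.05 edgeR listed 0 of the 25, where it listed 3.14% of all tested genes (1.36% higher and 1.78% lower), and at an adjusted p of 0.05 DESeq2 and limma-voom called 0 of the 25. Over all 11036 genes DESeq2 called 17 (0.154%) and limma-voom 0. The groups did not overlap in 0 of the 25 genes, against 2.29% of all tested genes. Without AAV-GFP replicate 3, in 4 libraries against 3, that count was 1 of 26 (Lcp1), against 5.82% of all genes tested there. In the same fit edgeR gave 2 of the 26 (H2-Eb1 and Lcp1) an unadjusted p under 0.05, against 4.93% of all genes. Levels were higher with AAV-Trib3 for 17 of the 25 and lower for 8, and 47.9% of all tested genes were higher. That count was 4 of 25 without AAV-Trib3 replicate 1, 9 of 26 without AAV-GFP replicate 1 or replicate 3, and 13 to 21 of 25 or 26 without any other library. The sign of 18 of the 25 log2 differences changed when at least 1 of the libraries was left out. The median log2 difference was 0.16 over the 25 genes and −0.0098 over all tested genes.

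These values leave wide room for differences in either direction. The median standard error (SE) of a log2 difference was 0.75 over the 25 genes and 0.216 over all tested genes. The median SD of log2 CPM within a group was 1.38 for the 25 and 0.305 for all tested genes. For 20 of the 25, the 95% interval (SE times the t quantile at 6 degrees of freedom) reached beyond a log2 difference of 1 on both sides of 0. The median over the genes turned to −0.31 without AAV-Trib3 replicate 1, −0.091 without AAV-GFP replicate 1 and −0.20 without AAV-GFP replicate 3, and was 0.56 without AAV-GFP replicate 4. Without AAV-GFP replicate 2, the library with the high mitochondrial share, it was 0.51 and edgeR called 0 of the members.

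**Figure D2:**
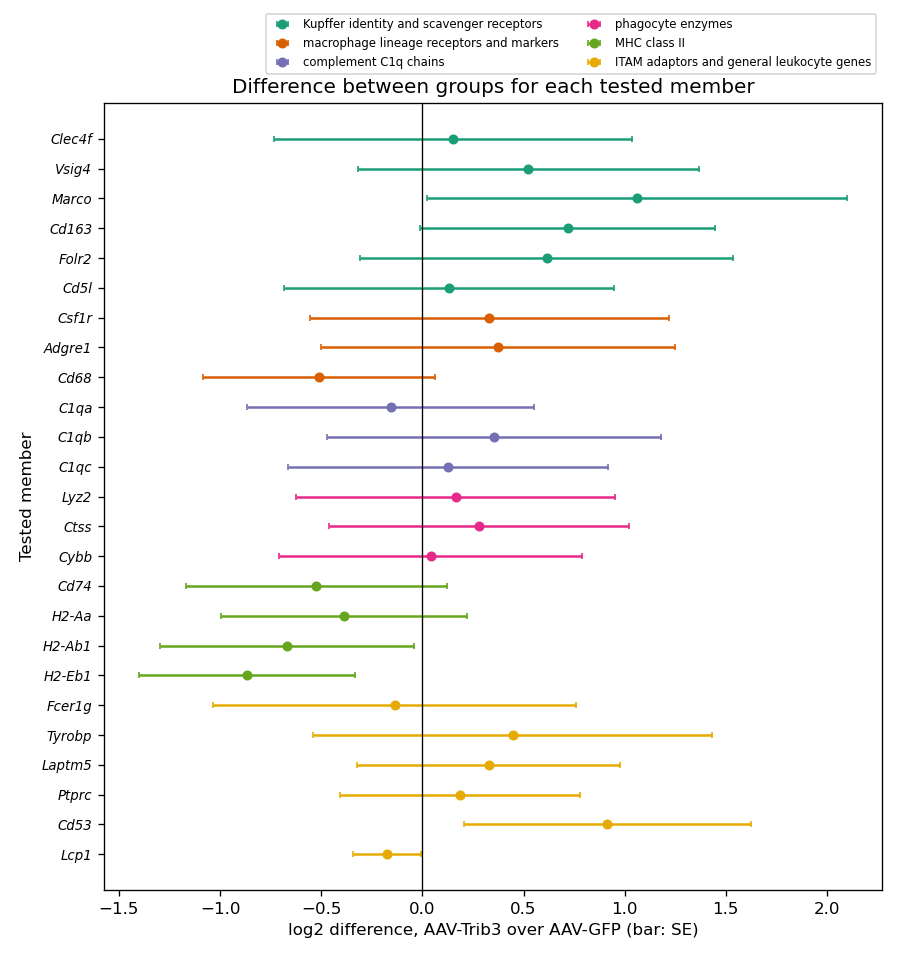
Log2 difference between AAV-Trib3 and AAV-GFP for the 25 tested genes, with bars of 1 SE and colours for role groups. Bars are wide against the differences, Lcp1 has the narrowest bar, and the 4 MHC class II genes lie left of 0.

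The genes of Kupffer cell identity and clearance include the C-type lectin Clec4f, which in mice marks Kupffer cells, and Cd5l, a secreted protein of tissue macrophages. Vsig4 is a receptor for complement-coated particles, Timd4 binds phosphatidylserine on dying cells, Marco and Cd163 are scavenger receptors, and Folr2 binds folate. Of the 7 genes, 6 were tested, and their log2 differences lay between 0.13 and 1.06, all above 0 with 0 past the threshold. Cd5l had the highest mean FPKM of all 30 genes, at 4.59. Its level was 19.7, 2.13, 3.96 and 13.1 CPM in AAV-Trib3 replicates 1 to 4, against 3.77, 15.1, 1.23 and 15.7 CPM in AAV-GFP replicates 1 to 4. Clec4f had 19.3, 1.47, 5.11 and 11.9 CPM in AAV-Trib3 replicates 1 to 4, against 1.34, 16.4, 1.66 and 14.9 CPM in AAV-GFP replicates 1 to 4. For both genes AAV-Trib3 replicates 1 and 4 and AAV-GFP replicates 2 and 4 were the high libraries, and the groups overlapped. The log2 difference was 0.15 ± 0.89 for Clec4f and 0.13 ± 0.82 for Cd5l (SE). Clec4f had 317 counts in AAV-Trib3 replicate 1, its highest library, and 16 in AAV-GFP replicate 1, its lowest. Before TMM correction these were 20.6 CPM (95% interval 18.4 to 23.0, exact Clopper-Pearson) and 1.41 CPM (0.806 to 2.29). Intervals and limits of this kind cover counting error only. Vsig4 had a log2 difference of 0.52 ± 0.84, Folr2 0.61 ± 0.92, Cd163 0.72 ± 0.73 and Marco 1.06 ± 1.04. Without AAV-Trib3 replicate 1, 4 of the 6 were below 0, with Clec4f and Cd5l at −0.47 each, Folr2 at −0.30 and Vsig4 at −0.046. Clec4f and Cd5l were also below 0 without AAV-GFP replicate 1 or 3, and Cd5l without AAV-Trib3 replicate 4. Marco and Cd163 kept their sign whichever library was left out, from 0.52 to 1.61 and from 0.19 to 1.34.

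Summed over the 7 genes, the level was 64.8, 5.50, 17.3 and 41.3 CPM in AAV-Trib3 replicates 1 to 4, against 7.38, 47.1, 5.05 and 44.7 CPM in AAV-GFP replicates 1 to 4. The highest library had 12.8 times the lowest, the widest range of the 6 role groups. AAV-Trib3 replicate 3 lay between the high and the low libraries.

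**Figure D3:**
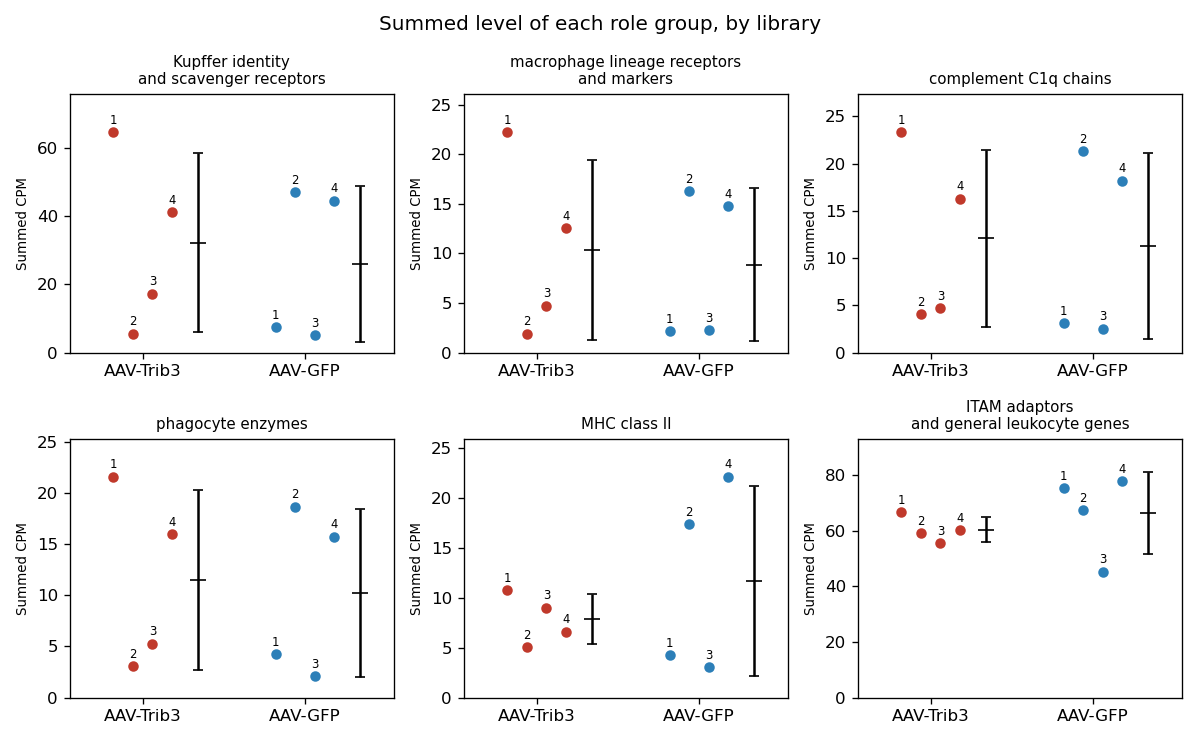
Summed TMM-normalised CPM of each role group in each library (points, numbered by replicate) with the mean and SD of the 4 libraries of a group (black bar). In the first 4 panels AAV-Trib3 replicates 1 and 4 and AAV-GFP replicates 2 and 4 are high; MHC class II spans 5.06 to 10.8 CPM in AAV-Trib3 and 3.03 to 22.2 CPM in AAV-GFP.

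Timd4 did not follow Clec4f in every library. It had 15, 0, 4 and 10 counts in AAV-Trib3 replicates 1 to 4, against 4, 0, 2 and 34 in AAV-GFP replicates 1 to 4. AAV-GFP replicate 2 had no Timd4 count beside 163 of Clec4f, while AAV-GFP replicate 4 had 34 beside 244. As a share of the counts of both genes together, Timd4 was 4.52% in AAV-Trib3 replicate 1 (exact 95% interval 2.55% to 7.34%) and 5.38% in AAV-Trib3 replicate 4 (2.61% to 9.66%). It was 12.2% in AAV-GFP replicate 4 (8.62% to 16.7%) and 0 of 163 in AAV-GFP replicate 2, which allows a share of up to 1.84% at 3 counts. The gap between the last 2 libraries of 1 group is beyond counting error, and the groups overlapped. Marco, measured the same way, took 15.9% (lower bound 12.4%) in AAV-Trib3 replicate 1 and 44 of 220 counts (14.9% to 25.9%) in AAV-Trib3 replicate 4. It took 10.4% (6.4% to 15.8%) in AAV-GFP replicate 2 and 8.96% (5.82% to 13.0%) in AAV-GFP replicate 4. In the other 4 libraries the counts of Clec4f were 16 to 67, and the intervals of both shares were wide. These shares were chosen after the values had been seen and were not tested.

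Vsig4 is shown with its promoter because it was high in the same libraries as Clec4f and Cd5l and the window holds a motif of the macrophage lineage factor PU.1 more than once. The window covers the RefSeq start site and the bases before it, and lies on the minus strand at chrX:96293389-96293688 (GRCm38.p6, the build of mm10). Capitals mark GAGGAA, the core of the PU.1 motif, searched on both strands and found at −155 and −53 from the start site.
Vsig4: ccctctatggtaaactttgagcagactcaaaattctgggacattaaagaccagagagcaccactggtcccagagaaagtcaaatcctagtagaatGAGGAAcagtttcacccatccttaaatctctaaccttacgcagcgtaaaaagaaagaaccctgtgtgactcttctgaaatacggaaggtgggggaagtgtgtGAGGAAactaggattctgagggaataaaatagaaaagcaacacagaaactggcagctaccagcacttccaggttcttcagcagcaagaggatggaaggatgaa
Of the members, 24 had 29 RefSeq windows, and the core was found in 13 of the 29 and in 28.3% of all 32851 windows. Member genes with it were Vsig4, Marco, Cd5l, Ms4a7, Aif1, Cd68, C1qb, C1qc, Ctss, Cybb, Laptm5, Ptprc and Cd53. A match of letters describes the window and is not evidence of binding.

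Receptors and markers of the macrophage lineage had 3 of 6 genes tested and 0 past the threshold. Csf1r and Adgre1, with the highest means in this role group, averaged 1.05 and 0.551 FPKM. Csf1r, the receptor for CSF1 and IL34, had 15.7, 1.39, 2.59 and 7.77 CPM in AAV-Trib3 replicates 1 to 4, against 1.09, 11.3, 1.01 and 8.66 CPM in AAV-GFP replicates 1 to 4. Adgre1, which encodes the F4/80 antigen, had 4.69, 0.293, 1.22 and 2.57 CPM in AAV-Trib3 replicates 1 to 4, against 0.168, 2.21, 0.578 and 3.78 CPM in AAV-GFP replicates 1 to 4. AAV-Trib3 replicates 1 and 4 and AAV-GFP replicates 2 and 4 were again the highest for both, AAV-Trib3 replicate 1 above all, and the groups overlapped. The log2 difference was 0.33 ± 0.89 for Csf1r, 0.37 ± 0.88 for Adgre1 and −0.51 ± 0.57 for Cd68, a lysosomal glycoprotein. Cx3cr1, the receptor of the chemokine CX3CL1, had 17 counts in all, 13 of them in AAV-Trib3 replicate 4. Aif1, an actin-binding protein of macrophages, had 27 counts, and Ms4a7, a membrane protein of macrophages, had 1.

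The 3 chains of C1q are encoded side by side on the minus strand of chromosome 4, within 18.7 kb (136880129 to 136898803 in mm10), and assemble into 1 protein that starts the classical complement pathway. All 3 were high in the same libraries. C1qa had 6.39, 0.953, 1.6 and 4.93 CPM in AAV-Trib3 replicates 1 to 4, against 1.51, 6.83, 1.08 and 6.22 CPM in AAV-GFP replicates 1 to 4. C1qb had 9.74, 1.39, 1.6 and 5.88 CPM in AAV-Trib3 replicates 1 to 4, against 0.838, 6.73, 0.722 and 6.41 CPM in AAV-GFP replicates 1 to 4. C1qc had 7.19, 1.69, 1.52 and 5.47 CPM in AAV-Trib3 replicates 1 to 4, against 0.754, 7.73, 0.722 and 5.55 CPM in AAV-GFP replicates 1 to 4. In each chain the low libraries of a group were well below the high ones, and the groups overlapped. Log2 differences were −0.16 ± 0.71, 0.35 ± 0.83 and 0.12 ± 0.79 for C1qa, C1qb and C1qc. Per gene length, C1qa took 30.7% to 41.4% of the summed FPKM of the 3 chains in AAV-Trib3 and 40.2% to 56.4% in AAV-GFP. C1qb took 39.6% to 48.5% in AAV-Trib3 and 29.95% to 40.7% in AAV-GFP. C1qc was the lowest of the 3 in all 8 libraries, at 18.1% to 26.3% in AAV-Trib3 and 13.7% to 22.0% in AAV-GFP. The highest C1qa shares, 56.4% and 51.0%, were in AAV-GFP replicates 1 and 3, where C1qa rested on 18 and 15 counts.

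Both C1q windows below are on the minus strand, C1qb at chr4:136886151-136886450 and C1qc at chr4:136892865-136893164 (GRCm38.p6, RefSeq). They are shown because the 2 neighbouring genes were high in the same libraries and each holds the core GAGGAA once, in capitals. In C1qc it reads TTCCTC, the opposite strand, and is part of a longer motif, GAGGAAGT, that is in 3.2% of all windows.
C1qb: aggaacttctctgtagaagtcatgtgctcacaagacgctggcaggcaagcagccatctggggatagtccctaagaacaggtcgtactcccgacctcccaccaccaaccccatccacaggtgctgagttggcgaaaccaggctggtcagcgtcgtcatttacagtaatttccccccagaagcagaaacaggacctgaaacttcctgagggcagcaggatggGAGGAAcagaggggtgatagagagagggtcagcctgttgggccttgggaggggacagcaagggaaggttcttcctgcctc
C1qc: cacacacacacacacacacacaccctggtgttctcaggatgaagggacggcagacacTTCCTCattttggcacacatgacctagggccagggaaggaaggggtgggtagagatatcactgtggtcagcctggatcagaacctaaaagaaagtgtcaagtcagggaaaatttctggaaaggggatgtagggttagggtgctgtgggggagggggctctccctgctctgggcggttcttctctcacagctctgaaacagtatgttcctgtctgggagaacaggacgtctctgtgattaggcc
In C1qb the core starts 30 bases before the start site, at −30, and in C1qc at −193.

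Phagocyte enzymes were high in the same libraries, and 0 of 3 passed the threshold. Lyz2, the lysozyme of macrophages, had 8.1, 1.83, 1.83 and 7.9 CPM in AAV-Trib3 replicates 1 to 4, against 1.59, 9.14, 0.578 and 6.47 CPM in AAV-GFP replicates 1 to 4. Ctss, a cathepsin that trims the MHC class II invariant chain, had 9.38, 0.806, 2.67 and 6.01 CPM in AAV-Trib3 replicates 1 to 4, against 2.1, 6.23, 0.867 and 6.47 CPM in AAV-GFP replicates 1 to 4. AAV-GFP replicate 2 was the highest library for Lyz2 and AAV-Trib3 replicate 1 for Ctss, and the groups overlapped for both. Before TMM correction AAV-Trib3 replicate 1 was the highest for Lyz2, at 8.66 CPM against 6.39 CPM in AAV-GFP replicate 2. The log2 differences were 0.16 ± 0.79 for Lyz2, 0.28 ± 0.74 for Ctss and 0.04 ± 0.75 for Cybb, the catalytic subunit of the phagocyte NADPH oxidase. Lyz2 has a close copy, Lyz1, and how reads shared by both were counted is not given, so its counts are uncertain.

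The MHC class II genes did not keep to the order of the Kupffer cell genes. They encode the invariant chain (Cd74), which guides class II molecules to the endosome, the alpha and beta chains of I-A (H2-Aa and H2-Ab1) and the beta chain of I-E (H2-Eb1). Cd74 had 5.3, 2.64, 4.19 and 2.97 CPM in AAV-Trib3 replicates 1 to 4, against 1.59, 8.34, 1.08 and 10.7 CPM in AAV-GFP replicates 1 to 4. H2-Aa had 2.25, 1.1, 1.91 and 1.69 CPM in AAV-Trib3 replicates 1 to 4, against 0.671, 3.11, 0.65 and 4.64 CPM in AAV-GFP replicates 1 to 4. In both genes AAV-GFP replicate 4 was the highest library and AAV-Trib3 replicate 3 lay above AAV-Trib3 replicate 4. H2-Ab1 had 1.95, 0.953, 1.68 and 0.675 CPM in AAV-Trib3 replicates 1 to 4, against 0.754, 3.62, 0.578 and 3.48 CPM in AAV-GFP replicates 1 to 4. H2-Eb1 had 1.28, 0.366, 1.22 and 1.28 CPM in AAV-Trib3 replicates 1 to 4, against 1.26, 2.31, 0.722 and 3.29 CPM in AAV-GFP replicates 1 to 4. The AAV-Trib3 values of all 4 genes lay within the range of the AAV-GFP values except for H2-Eb1 in AAV-Trib3 replicate 2, which was the lowest of 8. All 4 log2 differences were below 0, at −0.53 ± 0.65, −0.39 ± 0.61, −0.67 ± 0.63 and −0.87 ± 0.53 in that order, and 0 of 4 passed the threshold. H2-Eb1 had the smallest unadjusted p of the 25 tested genes, 0.137, with an adjusted p of 0.9995 in edgeR's quasi-likelihood test (Benjamini-Hochberg). The log2 differences of Cd74 and H2-Aa were 0.068 and 0.27 without AAV-GFP replicate 4 and 0.029 and 0.043 in limma-voom, so their direction changed with that library and with the test.

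Set against the Kupffer cell identity genes, the summed MHC class II counts were 0.167, 0.92, 0.520 and 0.160 per count in AAV-Trib3 replicates 1 to 4, against 0.580, 0.369, 0.6 and 0.496 in AAV-GFP replicates 1 to 4. The exact 95% intervals of AAV-Trib3 replicates 1 and 4 were 0.141 to 0.195 and 0.128 to 0.199, below the 0.308 to 0.44 of AAV-GFP replicate 2, the lowest AAV-GFP library. The interval of AAV-Trib3 replicate 2 was 0.654 to 1.29, and the groups overlapped. Class II counts did not keep 1 ratio to Kupffer cell counts, with 5.75 times between the highest and lowest library. For C1q the same ratio was 0.360, 0.733, 0.273 and 0.394 in AAV-Trib3 replicates 1 to 4, against 0.420, 0.452, 0.5 and 0.407 in AAV-GFP replicates 1 to 4, with 2.69 times between the extremes. Neither ratio was tested, since both were chosen with the values known.

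**Figure D4:**
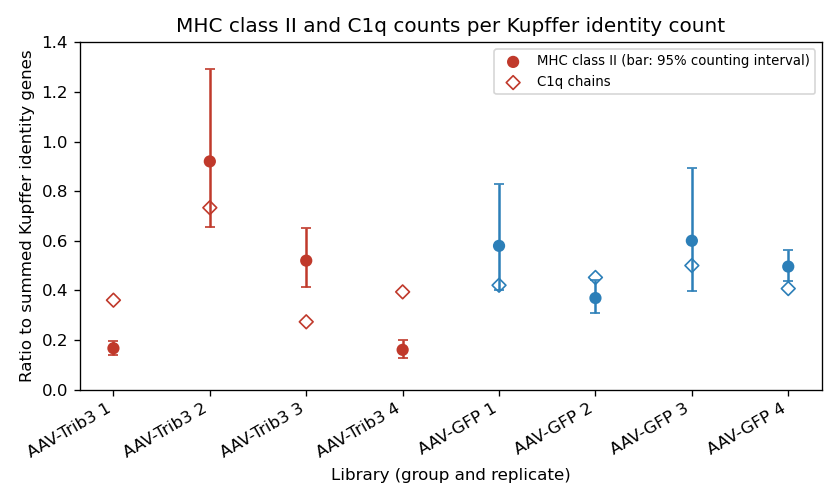
Summed MHC class II counts (filled circles, bars are exact 95% counting intervals) and summed C1q counts (open diamonds) per count of the 7 Kupffer cell identity genes in each library, AAV-Trib3 in red and AAV-GFP in blue. AAV-Trib3 replicates 1 and 4 have the lowest MHC class II ratios, 0.167 and 0.160, and AAV-Trib3 replicate 2 has the highest, 0.92.

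Promoters of H2-Aa and H2-Eb1 are shown because 2 of the 29 member windows, 1 of each gene, held CTGATTGG, a form of the Y box of MHC class II promoters. The 8 letters, in capitals and searched on both strands, occur in 4.1% of all windows. They end in ATTGG, the shorter CCAAT box, which 11 of the 29 member windows and 37.4% of all windows held. Cd74 and H2-Ab1 were not searched. H2-Aa lies at chr17:34287774-34288073 on the minus strand and H2-Eb1 at chr17:34305617-34305916 on the plus strand (GRCm38.p6, RefSeq).
H2-Aa: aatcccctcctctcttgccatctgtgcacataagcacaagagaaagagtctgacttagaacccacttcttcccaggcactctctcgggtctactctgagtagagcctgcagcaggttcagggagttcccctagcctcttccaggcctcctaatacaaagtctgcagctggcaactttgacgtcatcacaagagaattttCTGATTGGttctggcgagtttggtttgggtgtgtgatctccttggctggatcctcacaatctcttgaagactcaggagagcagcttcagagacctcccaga
H2-Eb1: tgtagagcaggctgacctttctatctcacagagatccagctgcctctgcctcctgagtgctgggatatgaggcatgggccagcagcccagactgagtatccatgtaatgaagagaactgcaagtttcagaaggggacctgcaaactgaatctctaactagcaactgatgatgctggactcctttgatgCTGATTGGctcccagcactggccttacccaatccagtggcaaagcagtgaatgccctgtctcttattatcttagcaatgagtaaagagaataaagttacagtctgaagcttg
The motif starts at −51 in H2-Aa and at −62 in H2-Eb1, counted from the start site. With H2-Ab1, the 2 genes lie within 53.0 kb on chromosome 17 (34263209 to 34316199 in mm10).

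The last role group joins signalling adaptors and genes shared by most leukocytes. Tyrobp, the adaptor DAP12, had 1.77, 0.0733, 0.839 and 0.675 CPM in AAV-Trib3 replicates 1 to 4, against 0, 1.71, 0.144 and 0.732 CPM in AAV-GFP replicates 1 to 4, with counts of 0 to 29 per library. Fcer1g, the gamma chain of Fc receptors, had a log2 difference of −0.14 ± 0.90 and Tyrobp 0.45 ± 0.99. Ptprc (CD45), the tetraspanin Cd53 and the lysosomal protein Laptm5 had 0.19 ± 0.59, 0.91 ± 0.71 and 0.33 ± 0.65. Leaving out 1 library changed the sign for Fcer1g (up to 0.35), Tyrobp (down to −0.23), Laptm5 (down to −0.017) and Ptprc (down to −0.13). For Cd53 it did not, with values between 0.55 and 1.59. Coro1a, an actin-binding coronin, had 42 counts in all. Of the 5 tested genes named here, 0 passed the threshold, and the groups overlapped in each.

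Lcp1, which encodes the actin-bundling protein L-plastin of leukocytes, had a narrower range over the libraries than the other genes of the group. It had 55.3, 57.3, 50.1 and 52.7 CPM in AAV-Trib3 replicates 1 to 4, against 73.8, 58, 43.5 and 68.2 CPM in AAV-GFP replicates 1 to 4. Its highest library had 1.7 times its lowest, and AAV-GFP replicate 1, among the low libraries for Clec4f and C1q, was the highest. Before TMM correction AAV-GFP replicates 4 and 1 were nearly equal for Lcp1, at 78.4 and 77.6 CPM. AAV-GFP replicate 2 was then the lowest, at 40.6 CPM. The log2 difference was −0.18 ± 0.17, with the smallest SE of the 25 tested genes. Its mean FPKM, 4.41, was close to that of Cd5l, whereas Ptprc and Coro1a, also found across leukocytes, had 0.0645 and 0.071 FPKM. Which cells the Lcp1 counts came from was not tested. Within AAV-Trib3, replicates 1 and 4 both lay above replicates 2 and 3 in 19 of the 25 tested genes, the exceptions being Cd74, H2-Aa, H2-Ab1, Tyrobp, Ptprc and Lcp1. Within AAV-GFP, replicates 2 and 4 both lay above replicates 1 and 3 in 24 of the 25, with Lcp1 the exception. Both splits were chosen from the values of these genes, and the share of all tested genes with the same splits was not counted. The summed endothelial and stellate cell markers, given below, split the same way in AAV-GFP. In AAV-Trib3 the stellate cell sum (25.2 and 27.0 CPM over 22.6 and 18.4 CPM) and the neutrophil and classical complement sums also split as the members did. The endothelial sum did not, and the hepatocyte sum was reversed (67400 and 69130 CPM under 94480 and 115900 CPM). AAV-Trib3 replicates 1 and 4 also differed least over the whole table (chi-square per degree of freedom 16.8, other pairs 47.95 to 80.45). Neither split is therefore particular to these genes.

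Other genes of macrophages, taken from a list without the 30 members, gave 19 tested genes of 31, with 11 higher and 8 lower and 0 past the threshold. The iron exporter Slc40a1 averaged 66.9 CPM. Within AAV-Trib3 it was highest in replicate 1 (97.2 CPM), also the highest library for Clec4f. Spi1, which encodes PU.1, had 1.34, 0.220, 0.534 and 0.270 CPM in AAV-Trib3 replicates 1 to 4, against 0.0838, 1.21, 0.144 and 0.854 CPM in AAV-GFP replicates 1 to 4, from 65 counts in all. The integrin Itgam and the receptor Trem2 of recruited macrophages had 5 and 6 counts over the 8 libraries. Of 15 genes of the MHC class II pathway, 6 were tested and 0 passed, and Ciita, the master regulator of class II genes, had 10 counts in all. The most abundant of these, Ctsl and Lgmn, are lysosomal proteases also found in other cells. Csf1, a ligand of CSF1R, had a log2 difference of 0.25 ± 0.54, while Il34 and Cx3cl1 had 8 and 18 counts. Of 15 macrophage cytokines, 4 were tested (Cxcl1, Il18, Cxcl10 and Cxcl16) and 0 passed. Il1b, Il6 and Tnf had 47, 14 and 6 counts. Partners of C1q in the classical pathway, led by C3 and C4b and made by hepatocytes, were higher for 6 of 6 genes, against 47.9% of all tested genes. Their median log2 difference was 0.19, and 0 of 6 passed. C1s1 had the largest difference, 0.67 ± 0.43, with overlapping groups (229 to 686 CPM in AAV-Trib3, 199 to 624 CPM in AAV-GFP). In edgeR C2 had an unadjusted p of 0.048 and an adjusted p of 0.9995. Fits without 1 library were not read for these genes.

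Markers of other cell types were read beside these values, and their part in them was not tested. The 15 genes of sinusoidal endothelium, led by Ptprb and Stab2, summed to 73.9 to 114 CPM in AAV-Trib3 and 29.0 to 152 CPM in AAV-GFP. AAV-GFP replicates 2 and 4 were high in it, at 103 and 152 CPM, as they were in the Kupffer cell genes. AAV-Trib3 replicates 2 and 4 were nearly equal in it, at 85.2 and 84.4 CPM, but had 5.50 and 41.3 CPM of Kupffer cell identity genes. The 12 stellate cell genes, led by Dcn and Ecm1, summed to 18.4 to 27.0 CPM in AAV-Trib3 and 5.85 to 45.2 CPM in AAV-GFP. All 15 and all 12 of these had counts, and 0 of the 15 and 6 tested passed the threshold.

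Lymphocyte and granulocyte markers were near 0. The 9 T cell genes summed to at most 2.49 CPM in AAV-Trib3 and 2.01 CPM in AAV-GFP, led by Cd4, which macrophages can also express. The 8 NK cell genes summed to at most 1.15 and 0.671 CPM, with Ncr1 and Eomes at 0 in all libraries. The 7 B cell genes summed to at most 3.51 CPM in AAV-Trib3 and 2.87 CPM in AAV-GFP, led by Ighm, with Ms4a1 and Ebf1 at 0 in all libraries. For the 9 neutrophil genes the sums were 0.220 to 3.11 CPM in AAV-Trib3 and 0.144 to 1.28 CPM in AAV-GFP. Monocyte genes (7, F13a1 at 0) summed to 1.45 to 1.89 CPM in AAV-Trib3 and 0.505 to 3.11 CPM in AAV-GFP. Dendritic cell genes (9, Cd209a at 0) summed to 1.32 to 2.86 CPM in AAV-Trib3 and 1.42 to 2.62 CPM in AAV-GFP. Zbtb46 was the 1 gene of this list with enough counts to be tested. In AAV-GFP replicate 4, the library with the highest class II sum, Zbtb46 made 1.04 of 2.62 CPM, and Clec9a (0.671 CPM) and Batf3 (0.305 CPM) came next. Bile duct genes (6, led by Sox9) summed to 2.35 to 4.73 CPM in AAV-Trib3 and 1.16 to 2.89 CPM in AAV-GFP, and platelet genes (4, led by Itga2b) to at most 1.98 and 1.47 CPM. Sox9, the 1 bile duct gene tested, had a log2 difference of 1.18 ± 0.41 (SE) with overlapping groups. In edgeR its unadjusted p was 0.016 and its adjusted p 0.9995. Epcam, Krt19 and Krt7 had 24, 12 and 7 counts in all. Of the 6 erythroid genes, Alas2 lay at 66.9 to 132 CPM over the 8 libraries and the others at or below 1.26 CPM. The 8 hepatocyte genes had a median log2 difference of −0.037.

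**Figure D5:**
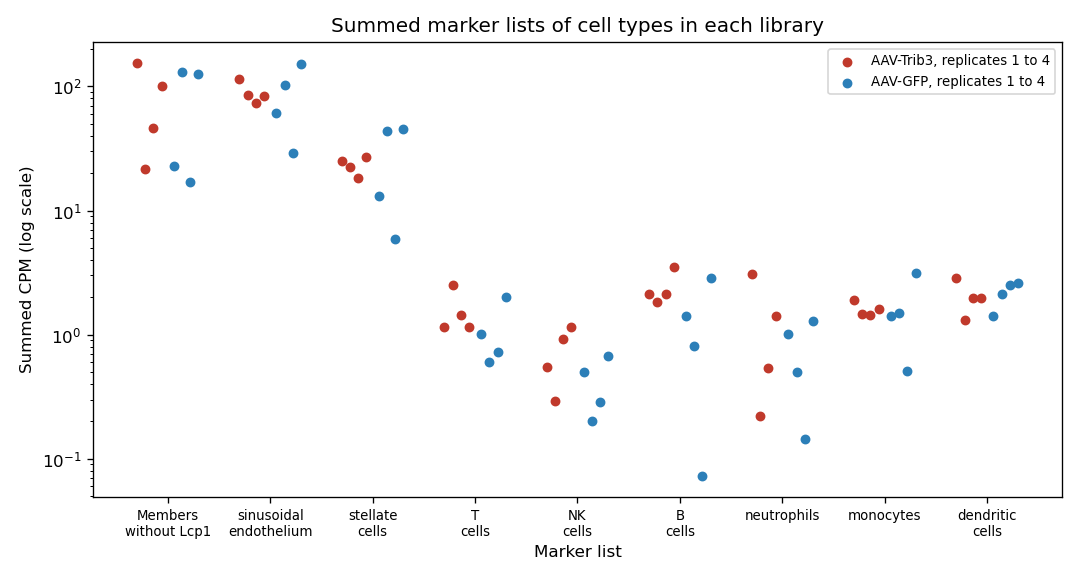
Summed TMM-normalised CPM (log scale) of the members without Lcp1 and of marker lists of other cell types in each library, AAV-Trib3 in red left of AAV-GFP in blue, replicates 1 to 4 from left to right. Endothelial and stellate cell lists lie above 5 CPM in all libraries, and the lymphocyte, neutrophil, monocyte and dendritic cell lists at or below 3.51 CPM.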

How the data were processed

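RNA was selected on oligo(dT) beads, fragmented, primed with random hexamers and sequenced from 8 libraries, per the labels' protocols, which name neither a strand-keeping step nor molecular identifiers. Per the submitters' processing notes, reads were trimmed with Trimmomatic and the genome build was mm10. No aligner, read counter or annotation, and no rule for multiply matching reads, is named (not given in the sources used here). Per gene and library, the deposited table holds, per the file headers, a raw count and an FPKM value (count per gene length and library size). Counts were used for all tests and FPKM only to compare genes. Columns were matched to samples by the code in each title.

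Genes were filtered with filterByExpr, scaled with TMM and tested over the whole table with edgeR 4.0.16 in R 4.3.3 (robust quasi-likelihood F test, no covariate, Benjamini-Hochberg adjustment). SEs came from the fold change and F. Alternatives used DESeq2 1.42.0, limma 3.58.1, other scalings and filters, mitochondrial genes left out, an endothelial covariate, the replicate block and each library left out. The members, role groups and lists were chosen with earlier results of these data known. Every library was given for the 2 members of a role group with the highest mean FPKM, for all C1q and MHC class II genes, and for some chosen after their values were seen (Timd4 and Spi1). Of each other list the 2 most abundant genes were to be named; those of near-absent cell types are given as sums, and some list genes are not reported here. All 30 members were in GENCODE M21 (same build), 20 with the same start and end. Libraries within a group differed well beyond counting noise (lowest chi-square over its degrees of freedom 16.8), so none was a repeat deposit. Figures used matplotlib 3.10.9.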

Additional observations from a re-analysis of the deposited data

Results flagged for a closer look

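In groups of 4 libraries, 118 sets of values were examined. In 9 of them the gap of 1 library to the nearest other was beyond Dixon's critical share of the whole range. For 4 independent, normally spread values, chance gives such a gap in about 5% of sets. Counts near 0 and sums that share genes do not meet this condition, so 9 of 118 cannot be set against that 5%. Among members, H2-Eb1 was low in AAV-Trib3 replicate 2, at 0.367 CPM against 1.22 to 1.28 CPM in the other 3. Cx3cr1 was high in AAV-Trib3 replicate 4, at 0.878 CPM, and in AAV-GFP replicate 4, at 0.122 CPM, which is 2 counts. The 1 count of Ms4a7, 0.0675 CPM, fell in AAV-Trib3 replicate 4. Timd4 was high in AAV-GFP replicate 4, at 2.075 CPM against at most 0.335 CPM in the other AAV-GFP libraries.

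Outside the members, the bile duct list was lowest in AAV-Trib3 replicate 2, at 2.35 CPM. AAV-GFP replicate 2 was highest of its group in 3 sets: C1q partners of the classical pathway (14840 CPM), hepatocyte genes (135800 CPM) and the share of mitochondrially encoded counts (32.0%).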

How the results depend on the processing

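With each alternative and with each library left out, 0 of the members passed the threshold in edgeR, DESeq2 or limma-voom. The groups overlapped for all tested members in the 5 other scalings and filters and in 7 of the 8 fits without 1 library. Without AAV-GFP replicate 3 the count free of overlap was 1 (Lcp1; 0 in the other fits), H2-Eb1 had a log2 difference of −1.14 and Lcp1 one of −0.31, with unadjusted p of 0.0448 and 0.0498 in edgeR. The median log2 difference of the members was 0.13 to 0.47 with other scalings, tests, filters and covariates, and −0.31 to 0.56 when 1 library was left out. With the replicate number as a block it was 0.36 and 0 members were called. Libraries with the same number did not deviate together (correlations −0.27 to −0.032), and no AAV-Trib3 library was closest to the AAV-GFP library of its own number. These values gave no sign that the numbers pair the libraries. With so few libraries they cannot exclude a shared preparation, which was not tested. Log2 differences changed sign for Cybb with the replicate block (−0.073) and the endothelial covariate (−0.12), and for Cd74 (0.029) and H2-Aa (0.043) in limma-voom. The cause was not tested. When 1 library was left out, 18 of the 25 log2 differences changed sign: Clec4f −0.47 to 0.65, Vsig4 −0.046 to 1.04, Folr2 −0.30 to 1.06, Cd5l −0.47 to 0.56, Csf1r −0.48 to 0.92, Adgre1 −0.31 to 1.20, C1qa −0.63 to 0.23, C1qb −0.30 to 0.79, C1qc −0.33 to 0.74, Lyz2 −0.21 to 0.76, Ctss −0.30 to 0.65, Cybb −0.72 to 0.45, Cd74 −0.87 to 0.068, H2-Aa −0.70 to 0.27, Fcer1g −0.95 to 0.35, Tyrobp −0.23 to 1.42, Laptm5 −0.017 to 0.87, Ptprc −0.13 to 0.59. The stricter filter kept 11 members, and without a filter all 30 had a value. Depth limits the low members most: Timd4, Aif1, Cx3cr1, Coro1a and Ms4a7 had 69, 27, 17, 42 and 1 counts over 8 libraries.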
